A study of Mus musculus with 36 samples.

Results

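The circadian clock genes described here are Per1, Per2, Per3, Cry1, Cry2, Clock, Nr1d1, Nr1d2, Dbp and Tef, taken by symbol from the gene table as a list of core clock and clock output genes. They are 10 of the 55487 genes in the table, and all 10 passed the filter on low counts that left 15489 genes for testing. The question asked of them was how they changed after 5 h of dexamethasone (Dex), a synthetic glucocorticoid, in cells with a mutated glucocorticoid receptor (GR), and how they differed between genotypes before treatment. The measurements were RNA-seq counts from 36 libraries of primary mouse embryonic fibroblasts (MEFs), grown in serum-containing medium and given either Dex at 1 μM or its solvent, here called vehicle, over 5 h. Each of 12 groups held 3 libraries, and the series gives 1 culture from 1 mouse for each replicate. GRwt/wt cells carry the unchanged receptor. GRD/D cells are homozygous for a missense change in the dimer interface of the DNA-binding domain, GRL/L cells for an isoleucine-to-alanine change in the ligand-binding domain, and GRD+L/D+L cells for both changes on the same allele. GRko/ko cells are GR knockout cells that served the study as a negative control, and the exact deletion was not given in the sources used here. The cells came from mid-gestation embryos of heterozygous intercrosses, and the point mutants were made on the FVB/NJ strain. The labels give FVB/NJ for all libraries, whereas the study's methods describe the GR knockout mice on another strain. GRwt/wt, GRD/D, GRD+L/D+L and GRko/ko were sequenced in run 1, and a second set of GRwt/wt cultures and GRL/L in run 2. All comparisons of genotypes were therefore made within a run. The time of day at harvest was not given in the sources used here, and with a single time point per treatment no rhythm was measured.

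The mammalian clock is a feedback loop of transcription. CLOCK and its partner BMAL1 (gene Arntl) bind E-boxes and activate the Per and Cry genes, whose proteins return to the nucleus and inhibit CLOCK and BMAL1. A second loop runs through the nuclear receptors REV-ERBα (Nr1d1) and REV-ERBβ (Nr1d2), which repress Arntl, and the PAR bZIP factors encoded by Dbp, Tef and Hlf carry the rhythm to output genes through D-boxes, where the repressor NFIL3 competes with them. Glucocorticoids are a known resetting signal for clocks in peripheral cells, fibroblasts included, and Per1 and Per2 are established direct targets of GR.

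Total counts ranged from 15280166 to 19102035 per library in the 24 libraries of run 1 and from 21532686 to 28662608 in the 12 of run 2. Nr3c1, the gene of GR, lay between 15.9 and 18.0 CPM (counts of a gene per 1e6 of the scaled library size) in the vehicle libraries of GRko/ko. Its fitted level was 0.237 times that of GRwt/wt of run 1 (log2 difference -2.08, edgeR adjusted p 2.44e-23), so transcript was reduced in the knockout and not absent. All 9 fibroblast markers passed the filter and summed to between 19995 and 31521 CPM. The summed level of 5 leukocyte markers in vehicle libraries was 33.3 to 56.1 CPM in GRwt/wt of run 1, 115 to 119.7 CPM in GRD/D, 9.12 to 10.5 CPM in GRD+L/D+L and 619 to 644 CPM in GRko/ko, and in run 2 it was 61.9 to 69.8 CPM in GRwt/wt and 128 to 150.2 CPM in GRL/L. Cartilage markers (4 genes) summed to 178 to 534 CPM in GRko/ko against 18.8 to 21.0 CPM in GRwt/wt of run 1. Muscle markers (4 genes, 2 of them past the filter) summed to 122 to 140.2 CPM in vehicle libraries of GRD+L/D+L and 65.9 to 68.4 CPM in those of GRko/ko, against 22.4 to 28.2 CPM in GRwt/wt of run 1. GRwt/wt of run 1 and GRD/D had the expression pattern of female cells in 6 of 6 libraries each, while the other groups had the male pattern throughout, so that sex cannot be told apart from genotype for GRD+L/D+L and GRko/ko. The part of these differences in the results that follow was not tested. In whole cultures, fewer cells of a type and less RNA per cell cannot be told apart. Vehicle replicate 2 of GRwt/wt in run 1 stood apart in several clock genes and in Fkbp5 (67.4 CPM against 47.8 and 47.6 CPM in the other two), a GR target. Where leaving it out changed a call or a direction of a member named below, or moved a value by over 1.5 times, the value without it is given too. Over the well-counted genes, squared differences between libraries of a group were set against sampling noise (median ratio). Dex replicate 4 of GRwt/wt in run 2 stood at 7.33 and 8.35 from replicates 5 and 6, which stood at 1.65 from each other. Vehicle replicates 2 and 3 of GRD/D stood at 7.26. Vehicle replicate 2 of GRwt/wt in run 1 stood at 1.71 from replicate 1 and at 2.68 from replicate 3, and replicates 1 and 3 stood at 2.48 from each other.

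The promoters of the members the results turn on are shown first, because the known regulators of these genes act through short DNA motifs. RefSeq windows of GRCm38.p6, from 250 bases before to 50 bases after a transcription start, were matched to 9 of the 10 members in 13 windows, and none was matched to Per2. The bases upstream of the start are printed 5′ to 3′ on the strand of the gene, without any that lie in an exon of the gene. Capitals mark an E-box (CACGTG) in Per1, Cry1 and Tef, a D-box (TTANGTAA) in Per3, the half-site of the ROR element recognised by REV-ERB and ROR receptors (AGGTCA, in Per1 on the other strand) and a glucocorticoid half-site (AGAACA) in Tef.
Per1, chr11:69098699-69098947, plus strand: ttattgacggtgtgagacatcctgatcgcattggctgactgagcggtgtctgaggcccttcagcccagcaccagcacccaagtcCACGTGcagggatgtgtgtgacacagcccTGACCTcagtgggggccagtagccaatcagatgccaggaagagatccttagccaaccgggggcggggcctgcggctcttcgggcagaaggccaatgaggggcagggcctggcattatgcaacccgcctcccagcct
Per3, chr4:151044666-151044915, minus strand: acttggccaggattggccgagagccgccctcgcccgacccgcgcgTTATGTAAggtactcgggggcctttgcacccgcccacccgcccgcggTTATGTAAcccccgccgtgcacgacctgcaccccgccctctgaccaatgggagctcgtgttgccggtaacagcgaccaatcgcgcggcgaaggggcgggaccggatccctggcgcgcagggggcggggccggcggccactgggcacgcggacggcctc
Cry1, chr10:85185065-85185304, minus strand: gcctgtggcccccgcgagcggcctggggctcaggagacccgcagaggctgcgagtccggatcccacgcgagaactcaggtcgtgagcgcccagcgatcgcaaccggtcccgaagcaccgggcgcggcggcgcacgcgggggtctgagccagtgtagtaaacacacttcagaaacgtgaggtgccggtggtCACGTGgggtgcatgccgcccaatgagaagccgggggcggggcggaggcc
Cry2, chr2:92434070-92434319, minus strand: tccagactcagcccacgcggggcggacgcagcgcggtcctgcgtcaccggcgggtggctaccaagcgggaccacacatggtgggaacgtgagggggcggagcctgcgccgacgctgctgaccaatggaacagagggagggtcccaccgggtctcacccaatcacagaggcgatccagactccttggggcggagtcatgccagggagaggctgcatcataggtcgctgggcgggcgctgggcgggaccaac
Tef, chr15:81811164-81811413, plus strand: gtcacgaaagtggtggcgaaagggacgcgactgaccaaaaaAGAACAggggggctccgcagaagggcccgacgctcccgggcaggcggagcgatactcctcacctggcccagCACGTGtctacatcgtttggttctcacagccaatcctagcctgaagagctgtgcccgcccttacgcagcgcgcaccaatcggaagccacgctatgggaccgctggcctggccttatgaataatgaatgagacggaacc

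Both strands of every window were searched. The E-box was found in the windows of 3 members, at -166 from the start in Per1, at -60 in Cry1 and at -127 and -138 from the separate starts of Tef, and 7.15% of all 32851 windows held it. The D-box occurred in Per3 alone among the members, at -205 and at -158, and in 2.32% of all windows. The ROR half-site was present in Clock, Nr1d2 and Per1, against 16.3% of all windows, and the glucocorticoid half-site in Tef, at -209, against 19% of all windows. No member's window held the full glucocorticoid response element, of which this half-site is the opening and which 0.0396% of all windows held, nor the cAMP response element TGACGTCA, held by 1.79%. The window of Cry2 held none of the motifs. These matches describe letters in a short window, and binding was not measured.

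Dex changed between 4 and 10 of these genes in every genotype except GRko/ko. In GRwt/wt of run 1, 5 of 10 members were raised (Per1, Per2, Cry1, Cry2 and Tef) beside 7.74% of all genes tested, and 2 were lowered (Nr1d1 and Nr1d2) beside 6.2%. GRD/D raised the same 5 beside 5.63% of all genes and lowered the same 2 beside 6.24%. GRD+L/D+L raised 3 (Per1, Per2 and Cry1) beside 3.08% and lowered 1 (Nr1d1) beside 1.92%. In run 2, GRwt/wt raised 6 members, Dbp in addition to the 5 of run 1, beside 14.9%, and lowered 4 (Per3, Clock, Nr1d1 and Nr1d2) beside 16.7%, whereas GRL/L raised 5 beside 8.79% and lowered 2 beside 10.4%. Genes were called at an adjusted p of at most 0.05, with adjustment over all 15489 genes by the Benjamini-Hochberg method in edgeR's quasi-likelihood F test. At the study's further limit of a log2 fold change of at least 1, Per1 and Per2 were the members raised in GRwt/wt of run 1 (beside 1.28% of all genes), in GRD/D (0.639%), in GRD+L/D+L (0.278%) and in GRL/L (1.51%), and Cry1 joined them in GRwt/wt of run 2 (2.44%). In GRko/ko, edgeR called 0 of 10 members (0% of all genes in either direction), and DESeq2 also called 0. By edgeR, 1 member, Per3, had an unadjusted p under 0.05, beside 859 of the 15489 genes tested. The median log2 change of the 10 members was 0.08 in GRwt/wt of run 1, 0.15 in GRD/D, 0.11 in GRD+L/D+L, -0.04 in GRko/ko, 0.41 in GRwt/wt of run 2 and 0.38 in GRL/L. Except in GRko/ko, each set held both raised and lowered members. Over all genes tested in GRwt/wt of run 1 the median was -0.00183.

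**Figure D1:**
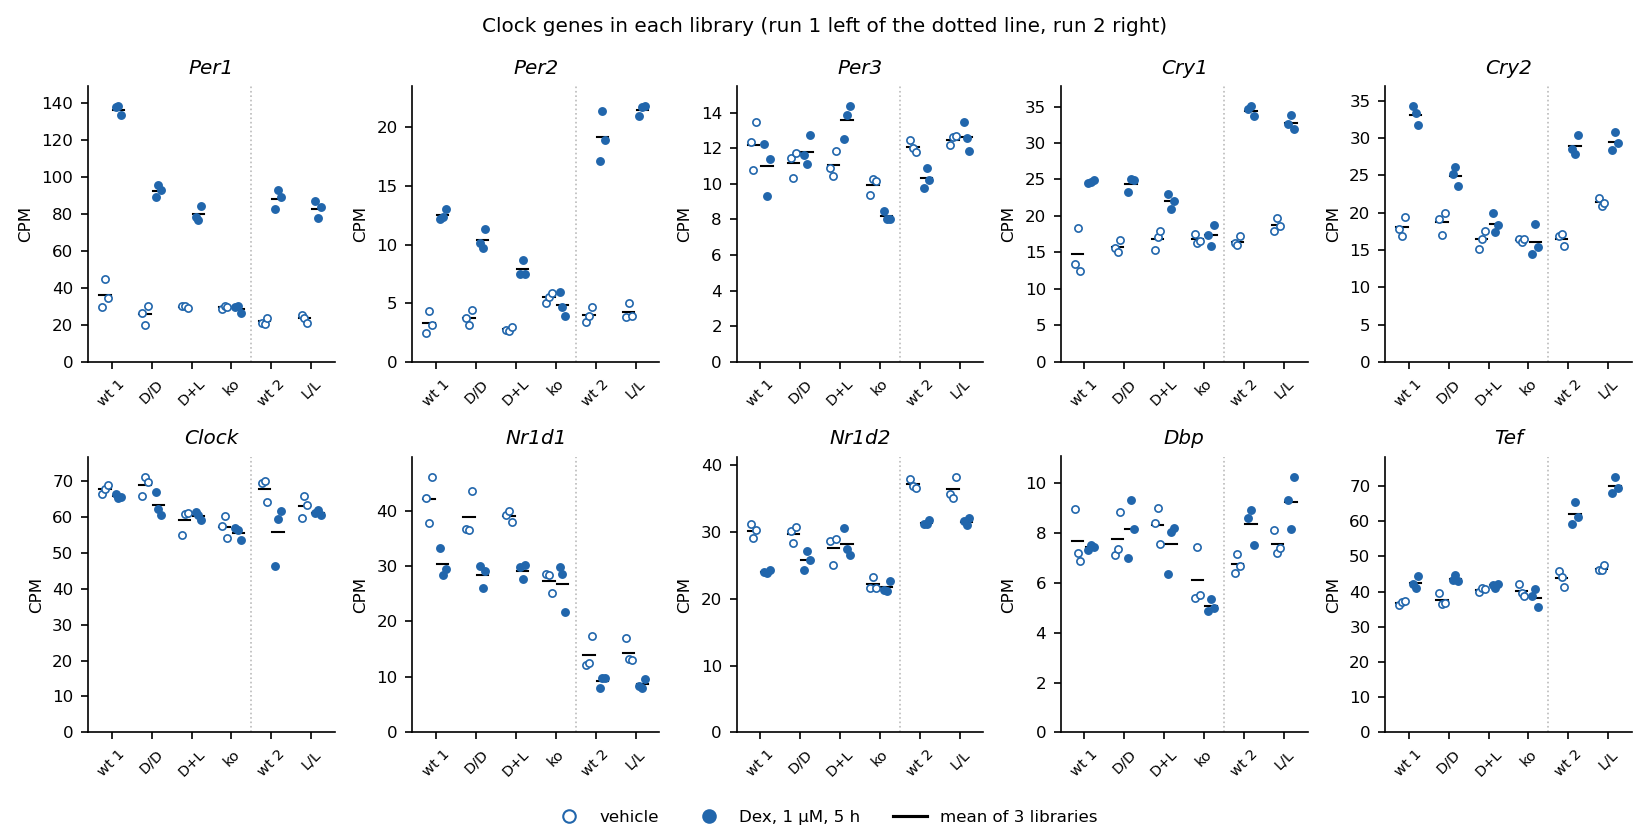
Level of each clock gene in CPM (vertical axis, linear, from 0) in every library, by genotype on the horizontal axis, with run 1 left and run 2 right of the dotted line. Open circles are vehicle libraries, filled circles Dex libraries and bars the mean of 3 libraries. For Per1, every Dex library except those of GRko/ko lies above all vehicle libraries of its genotype.

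**Figure D2:**
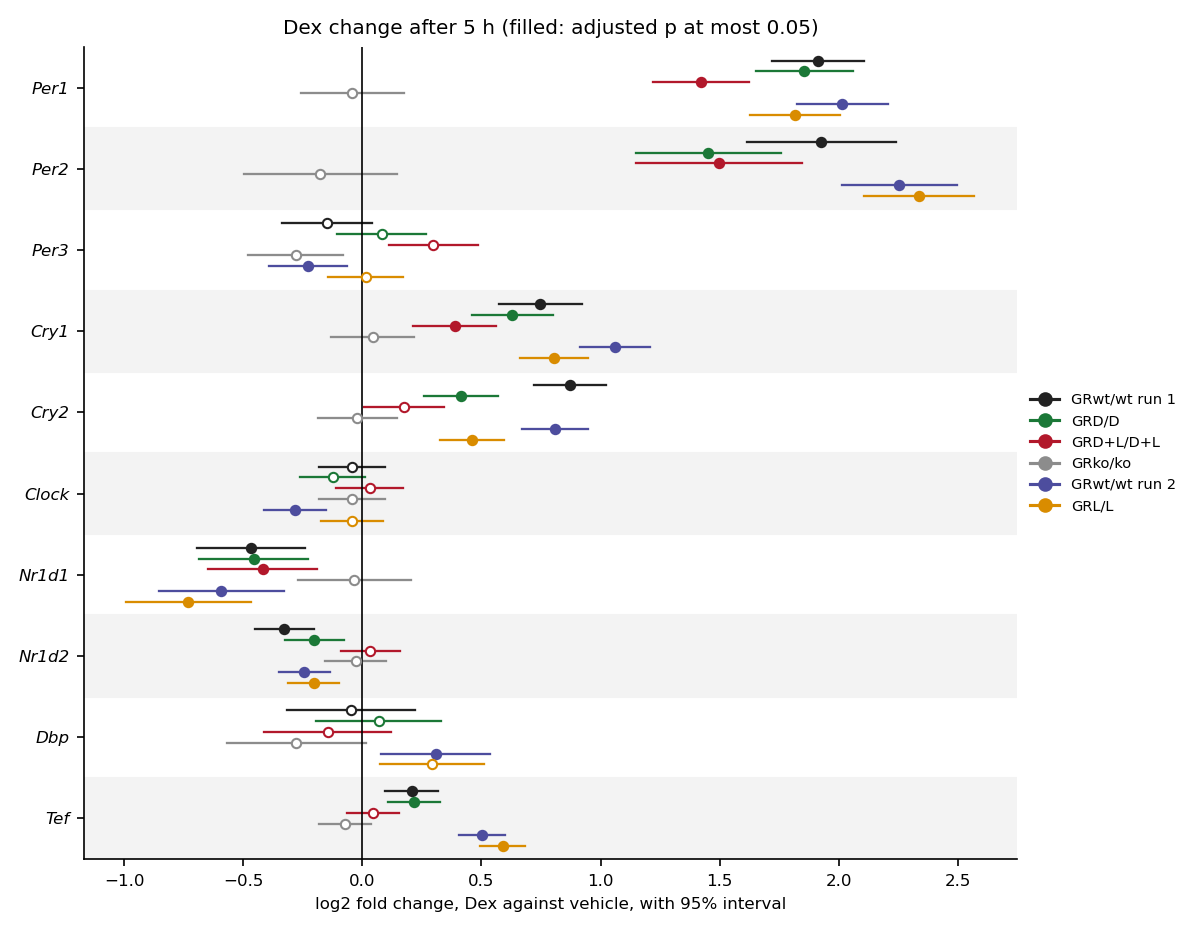
Log2 fold change of Dex against vehicle (horizontal axis) with its 95% interval for the 10 clock genes in the 6 genotype sets, from the edgeR fit to 3 libraries per group. Filled points have an adjusted p of at most 0.05. Per1 and Per2 stand at 1.42 or more in every set except GRko/ko, and Nr1d1 has a filled point below 0 in the same sets.

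Per1 (ENSMUSG00000020893, chr11:69095217-69109960 in GRCm38), a repressor of the clock's feedback loop and a fast-responding gene, rose several-fold wherever a receptor was present. In run 1, vehicle libraries of GRwt/wt had 29.7, 44.8 and 34.3 CPM and Dex libraries 137, 138 and 133 CPM. GRD/D went from 26.6, 20.2 and 30.0 CPM to 89.0, 95.6 and 92.9 CPM, and GRD+L/D+L from 30.4, 30.1 and 28.8 CPM to 78.4, 76.6 and 84.3 CPM. The vehicle and Dex libraries did not overlap in any of these sets, and the Dex libraries of the mutants all lay below those of GRwt/wt. GRko/ko had 28.7, 30.3 and 29.9 CPM in vehicle and 29.4, 30.4 and 26.5 CPM after Dex, which overlap. The log2 fold change was 1.91 (SE 0.0955, adjusted p 5.20e-18) in GRwt/wt, 1.86 (SE 0.0997, adjusted p 8.71e-16) in GRD/D and 1.42 (SE 0.0997, adjusted p 8.10e-13) in GRD+L/D+L. In GRko/ko it was -0.04 with a 95% interval of -0.26 to 0.17, and intervals are given in this form throughout. In run 2, GRwt/wt went from 20.9, 20.7 and 23.8 CPM to 82.5, 92.9 and 89.1 CPM and GRL/L from 25.5, 23.8 and 21.1 CPM to 86.7, 77.8 and 83.7 CPM, with log2 fold changes of 2.01 (SE 0.0945) and 1.82 (SE 0.0930). All 6 libraries of each treatment were separated in run 2, and the Dex libraries of GRwt/wt and GRL/L overlapped each other.

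Per2 (ENSMUSG00000055866, chr1:91415982-91459324), the second period repressor, was the member with the lowest vehicle level per length and also rose several-fold. Its vehicle libraries in GRwt/wt of run 1 had 2.47, 4.32 and 3.11 CPM and its Dex libraries 12.2, 12.3 and 13.0 CPM. GRD/D changed from 3.75, 3.19 and 4.41 CPM to 10.1, 9.69 and 11.3 CPM and GRD+L/D+L from 2.76, 2.62 and 2.99 CPM to 7.45, 8.68 and 7.50 CPM. All 3 sets were separated by treatment, and the Dex level was in the order GRwt/wt, GRD/D, GRD+L/D+L with no overlap between these sets. GRko/ko had 5.06, 5.56 and 5.88 CPM in vehicle and 5.92, 4.68 and 3.95 CPM after Dex. The log2 fold change was 1.93 (SE 0.153) in GRwt/wt, 1.45 (SE 0.151) in GRD/D, 1.50 (SE 0.171) in GRD+L/D+L and -0.18 (interval -0.50 to 0.14) in GRko/ko. In run 2, GRwt/wt rose from 3.42, 3.90 and 4.72 CPM to 17.1, 21.4 and 18.9 CPM and GRL/L from 3.79, 5.00 and 3.93 CPM to 21.0, 21.7 and 21.8 CPM. These correspond to log2 fold changes of 2.25 (SE 0.119, adjusted p 6.34e-18) and 2.34 (SE 0.114, adjusted p 2.34e-18), and the Dex libraries of both genotypes overlapped.

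Per3 (ENSMUSG00000028957, chr4:151003652-151044665), a period gene that is dispensable for the core rhythm, did not share the rise of Per1 and Per2. It stood at 12.3, 10.8 and 13.5 CPM in vehicle and 12.2, 9.34 and 11.4 CPM after Dex in GRwt/wt of run 1, with overlapping libraries and a log2 fold change of -0.15 (interval -0.34 to 0.04, adjusted p 0.355), which was -0.23 (adjusted p 0.144) without vehicle replicate 2. GRwt/wt of run 2 fell from 12.5, 12.0 and 11.8 CPM to 9.78, 10.9 and 10.2 CPM without overlap, a log2 fold change of -0.23 (adjusted p 0.0277). That call was lost without Dex replicate 4 (adjusted p 0.118) or 6 (0.0601) and without vehicle replicate 4 (0.0991) or 5 (0.0576). GRD+L/D+L went the other way, from 10.9, 10.4 and 11.8 CPM to 12.5, 13.8 and 14.3 CPM with no overlap, a log2 fold change of 0.30 at an adjusted p of 0.0510. In GRko/ko the Dex libraries (8.47, 8.02 and 8.02 CPM) lay below the vehicle libraries (9.35, 10.3 and 10.2 CPM), with an unadjusted p of 0.00725 and an adjusted p of 0.698.

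Cry1 and Cry2 encode the cryptochromes, which act with the period proteins as repressors of CLOCK and BMAL1. Both rose with Dex in GRwt/wt of either run, by less than Per1 and Per2 on the log2 scale. Cry1 (ENSMUSG00000020038, chr10:85131700-85185064) had 13.4, 18.4 and 12.5 CPM in vehicle and 24.5, 24.7 and 24.9 CPM after Dex in GRwt/wt of run 1. The levels were 15.6, 15.1 and 16.6 CPM and 23.2, 25.1 and 25.0 CPM in GRD/D, and 15.4, 17.1 and 18.0 CPM and 23.0, 20.9 and 22.0 CPM in GRD+L/D+L. Vehicle and Dex libraries were separate in all 3, and the Dex libraries of GRwt/wt and GRD/D overlapped while those of GRD+L/D+L were lower. GRko/ko had 17.6, 16.3 and 16.6 CPM and 17.4, 15.9 and 18.8 CPM. The log2 fold changes were 0.75 (SE 0.0860, adjusted p 1.63e-08) in GRwt/wt, 0.63 (SE 0.0843, adjusted p 8.26e-07) in GRD/D, 0.39 (SE 0.0859, adjusted p 0.00272) in GRD+L/D+L and 0.04 (interval -0.13 to 0.22) in GRko/ko. In run 2 Cry1 went from 16.3, 16.0 and 17.2 CPM to 34.6, 35.0 and 33.7 CPM in GRwt/wt (log2 fold change 1.06, SE 0.0723) and from 17.9, 19.7 and 18.6 CPM to 32.6, 33.8 and 31.9 CPM in GRL/L (0.80, SE 0.0708). The treatments were separate in both genotypes.

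Cry2 (ENSMUSG00000068742, chr2:92403646-92434043) reached a lower level after Dex in each mutant of run 1 than in GRwt/wt. GRwt/wt of run 1 had 17.8, 16.9 and 19.5 CPM in vehicle and 34.2, 33.3 and 31.7 CPM after Dex. GRD/D had 19.2, 17.0 and 19.9 CPM and 25.2, 26.1 and 23.5 CPM, and GRD+L/D+L 15.2, 16.5 and 17.6 CPM and 19.9, 17.4 and 18.3 CPM. The Dex libraries of GRwt/wt were all above those of GRD/D, which were all above those of GRD+L/D+L, while the vehicle libraries of GRwt/wt overlapped with both mutants. The treatments no longer separated in GRD+L/D+L, nor in GRko/ko with 16.5, 16.0 and 16.4 CPM in vehicle and 14.4, 18.5 and 15.4 CPM after Dex. The log2 fold change was 0.87 (SE 0.0752, adjusted p 1.55e-11) in GRwt/wt and 0.41 (SE 0.0766, adjusted p 0.000173) in GRD/D. It was 0.18 (interval 0.01 to 0.34, adjusted p 0.303) in GRD+L/D+L and -0.02 (interval -0.19 to 0.15) in GRko/ko. In run 2 the Dex libraries of GRwt/wt (28.5, 27.9 and 30.4 CPM) and GRL/L (28.3, 30.7 and 29.3 CPM) overlapped, whereas the vehicle libraries did not, with 16.9, 17.1 and 15.6 CPM in GRwt/wt and 22.0, 20.9 and 21.2 CPM in GRL/L. The log2 fold changes there were 0.81 (SE 0.0682) and 0.46 (SE 0.0657, adjusted p 9.98e-07).

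Clock (ENSMUSG00000029238, chr5:76209868-76304792), the activator of the loop, was not called for a Dex change in run 1. Its log2 fold change was -0.04 (interval -0.18 to 0.09) in GRwt/wt of run 1, -0.12 in GRD/D, 0.03 in GRD+L/D+L and -0.04 in GRko/ko. Clock fell in GRwt/wt of run 2, from 69.5, 70.0 and 64.0 CPM to 46.3, 59.4 and 61.7 CPM without overlap, a log2 fold change of -0.28 (adjusted p 0.000628). Dex replicate 4 of this set, at 46.3 CPM, was the lowest of the 36 libraries, and without it the fold change was -0.16 (adjusted p 0.0172). GRL/L had -0.04 (interval -0.17 to 0.09).

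Of the REV-ERB genes, Nr1d1 fell in every set except GRko/ko, and Nr1d2 in every set except GRD+L/D+L and GRko/ko. Nr1d1 (ENSMUSG00000020889, chr11:98767932-98775333) went from 42.2, 37.8 and 46.1 CPM to 33.2, 28.4 and 29.5 CPM in GRwt/wt of run 1, from 36.6, 36.5 and 43.4 CPM to 30.0, 26.1 and 29.1 CPM in GRD/D and from 39.1, 39.9 and 37.9 CPM to 29.7, 27.6 and 30.2 CPM in GRD+L/D+L. The treatments were separate in all 3 sets, and the Dex libraries of these genotypes overlapped. GRko/ko had 28.5, 28.4 and 25.2 CPM and 29.9, 28.6 and 21.8 CPM. Its log2 fold change was -0.47 (SE 0.111, adjusted p 0.00251), -0.45 (SE 0.113, adjusted p 0.00512), -0.42 (SE 0.113, adjusted p 0.0190) and -0.03 (interval -0.27 to 0.20) in that order. The call in GRD/D was lost without Dex replicate 2 (adjusted p 0.0514), and that in GRD+L/D+L without Dex replicate 1 (0.0525) or 2 (0.107) or vehicle replicate 1 (0.0666) or 2 (0.0788). In run 2, at a lower level, Nr1d1 fell from 12.1, 12.5 and 17.5 CPM to 8.08, 9.85 and 9.85 CPM in GRwt/wt (log2 fold change -0.59, adjusted p 0.000406) and from 17.0, 13.3 and 13.0 CPM to 8.46, 7.92 and 9.54 CPM in GRL/L (-0.73, adjusted p 3.71e-05). Exons of Nr1d1 share 263 bases, 8.55% of its exon length, with Thra, the thyroid hormone receptor α gene on the opposite strand, and whether the counting used strand was not given in the sources used here. Thra was not called as lower in these sets, and its log2 change with Dex was 0.18 (adjusted p 0.130) in GRwt/wt of run 1, 0.17 (0.0302) in run 2 and -0.03 (0.840) in GRL/L.

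Nr1d2 (ENSMUSG00000021775, chr14:18204054-18239127), the partner of Nr1d1 in repression of Arntl, fell by less on the log2 scale. In GRwt/wt of run 1 it fell from 31.1, 29.0 and 30.3 CPM to 24.0, 23.8 and 24.3 CPM, a log2 fold change of -0.33 (SE 0.0612, adjusted p 0.000123). GRD/D went from 30.1, 28.3 and 30.7 CPM to 24.4, 27.2 and 25.8 CPM (-0.20, adjusted p 0.0235). This call was lost without Dex replicate 1 (adjusted p 0.119) or 3 (0.0661) or vehicle replicate 1 (0.0580) or 3 (0.0886). GRD+L/D+L had 28.7, 25.1 and 28.9 CPM in vehicle and 30.6, 27.4 and 26.6 CPM after Dex, which overlapped, with a log2 fold change of 0.03 (interval -0.09 to 0.16). GRko/ko had -0.03 (interval -0.16 to 0.10). In run 2 Nr1d2 fell without overlap in GRwt/wt, from 37.8, 36.9 and 36.5 CPM to 31.2, 31.1 and 31.7 CPM (-0.24, adjusted p 0.000371), and in GRL/L, from 35.7, 35.1 and 38.2 CPM to 31.6, 31.0 and 32.1 CPM (-0.20, adjusted p 0.00376), a difference between the genotypes of 0.04 (interval -0.11 to 0.19).

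Of the PAR bZIP output genes, Tef (ENSMUSG00000022389, chr15:81802421-81826863) was called in 4 of the 6 sets and Dbp (ENSMUSG00000059824, chr7:45705088-45710203) in 1. Tef went from 36.2, 37.0 and 37.4 CPM to 42.3, 41.0 and 44.3 CPM in GRwt/wt of run 1 and from 39.5, 36.6 and 36.7 CPM to 43.4, 44.6 and 43.1 CPM in GRD/D, with log2 fold changes of 0.21 (SE 0.0543, adjusted p 0.00666) and 0.22 (SE 0.0538, adjusted p 0.00496). In GRD+L/D+L the treatments were still separate, at 40.0, 40.9 and 40.6 CPM and 41.9, 41.2 and 42.3 CPM, but the log2 fold change was 0.04 (interval -0.07 to 0.15) and was not called. GRko/ko had -0.07 (interval -0.18 to 0.04). In run 2 Tef rose from 45.9, 44.1 and 41.3 CPM to 59.2, 65.6 and 61.2 CPM in GRwt/wt (0.50, SE 0.0479, adjusted p 8.83e-11) and from 46.2, 46.0 and 47.4 CPM to 68.1, 72.6 and 69.4 CPM in GRL/L (0.59, SE 0.0472, adjusted p 2.05e-12). Dbp was not called in run 1, with log2 fold changes of -0.05 in GRwt/wt (-0.09 without vehicle replicate 2), 0.07 in GRD/D, -0.15 in GRD+L/D+L and -0.28 in GRko/ko. In run 2 it rose in GRwt/wt from 6.38, 7.15 and 6.69 CPM to 8.59, 8.93 and 7.52 CPM (0.31, adjusted p 0.0330), a call lost without Dex replicate 4 (adjusted p 0.0921) or 5 (0.124) or vehicle replicate 4 (0.117) or 6 (0.0709). GRL/L went from 8.11, 7.21 and 7.39 CPM to 9.31, 8.18 and 10.2 CPM, without overlap, and reached 0.29 at an adjusted p of 0.0513. Exons of Dbp share 539 bases, 18.01% of its exon length, with Sphk2 on the opposite strand, which had a log2 change of 0.13 (adjusted p 0.138) in GRwt/wt of run 2.

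Whether the response to Dex differed between genotypes was tested as the difference of log2 fold changes against GRwt/wt of the same run. Against GRD/D, 1 of 10 members was called, beside 3.29% of all genes. It was Cry2, whose rise was smaller, with a log2 difference of -0.46 (SE 0.108, adjusted p 0.00800). Per1 differed by -0.06 with an interval of -0.34 to 0.23, and its Dex change in GRD/D was 97.1% of that in GRwt/wt on the log2 scale. Per2 differed by -0.47 (interval -0.93 to -0.02, adjusted p 0.394) and kept 75.4%. Without vehicle replicate 2 of GRwt/wt, these differences were -0.23 (adjusted p 0.543) for Per1 and -0.71 (adjusted p 0.126) for Per2.

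Against GRD+L/D+L, 3 members were called, beside 3.23% of all genes. Cry2 again had a smaller change (-0.70, SE 0.112, adjusted p 5.06e-05), retaining 20.2% of the GRwt/wt change. For Nr1d2, which fell in GRwt/wt, the difference was positive (0.36, SE 0.0864, adjusted p 0.00913). That call was lost without Dex replicate 1 (adjusted p 0.0695) or vehicle replicate 2 (0.0547) of GRD+L/D+L. Per1 rose less, with a log2 difference of -0.49 (SE 0.138, adjusted p 0.0385), retaining 74.4%. The call for Per1 was lost when any of 10 of the 12 libraries of this comparison was left out (adjusted p 0.0504 to 0.195). It held without Dex replicate 3 of GRD+L/D+L (adjusted p 0.0344) and without vehicle replicate 2 of GRwt/wt, where the difference was -0.67 (adjusted p 0.000825). Leaving out that GRwt/wt library also brought in Cry1, with a difference of -0.54 (adjusted p 0.000960) in place of -0.36 (adjusted p 0.127), and Per3, with 0.53 (adjusted p 0.0151) in place of 0.44 (adjusted p 0.0507). Per3 was also called without Dex replicate 1 (adjusted p 0.0372) or vehicle replicate 3 (0.0407) of GRD+L/D+L or Dex replicate 1 of GRwt/wt (0.0196). Per2 differed by -0.43 (interval -0.92 to 0.06) and Nr1d1 by 0.05 (interval -0.27 to 0.37), so that Nr1d1 kept 89.5% of its change. Without vehicle replicate 2 of GRwt/wt, these differences were -0.66 (adjusted p 0.225) for Per2 and 0.12 (adjusted p 0.898) for Nr1d1.

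GRD+L/D+L and GRD/D, which share the change in the DNA-binding domain, were also compared directly. edgeR called 0 members, beside 0.0775% of all genes, and DESeq2 called 0. By edgeR, 4 members had an unadjusted p under 0.05, with differences of -0.43 for Per1 (unadjusted p = 0.00422 in the edgeR fit across all genes), -0.24 for Cry2, 0.24 for Nr1d2 and -0.17 for Tef. In each of the 4 the change was closer to 0 in GRD+L/D+L. Per2 had a difference of 0.04 with an interval of -0.43 to 0.52.

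The knockout differed from GRwt/wt in 6 members, beside 8.48% of all genes. They were Per1 (-1.95, SE 0.143, adjusted p 6.83e-13), Per2 (-2.10, SE 0.223, adjusted p 6.12e-09), Cry1 (-0.70, SE 0.122, adjusted p 7.31e-05), Cry2 (-0.89, SE 0.111, adjusted p 2.04e-07), Nr1d2 (0.30, adjusted p 0.0256) and Tef (-0.28, adjusted p 0.0152). Nr1d1 differed by 0.44 at an adjusted p of 0.0931, and by 0.57 (adjusted p 0.0196) without Dex replicate 3 of GRko/ko. Nr1d1 was also called without the filter on low counts (adjusted p 0.00368), with the GRwt/wt sets pooled (0.0177) and with run 1 alone (0.0359), so that it lies close to the threshold. The call for Nr1d2 was lost without Dex replicate 3 (adjusted p 0.0799) or vehicle replicate 1 (0.0720) or 3 (0.0571) of GRko/ko or vehicle replicate 1 of GRwt/wt (0.0692). That for Tef was lost without Dex replicate 3 (0.0781) or vehicle replicate 1 (0.0595) of GRko/ko or Dex replicate 3 of GRwt/wt (0.0515).

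In run 2, GRL/L differed from GRwt/wt in 1 member, beside 1.85% of all genes. Cry2 rose less, with a log2 difference of -0.35 (SE 0.0948, adjusted p 0.0459). This call was lost when any of 10 of the 12 libraries was left out (adjusted p 0.0518 to 0.126) and held without Dex replicate 2 of GRL/L (0.0444) or Dex replicate 5 of GRwt/wt (0.0477). Cry2 was also higher in GRL/L before treatment, while its Dex libraries overlapped with those of GRwt/wt. Per1 differed by -0.20 (interval -0.47 to 0.07), Per2 by 0.08 (interval -0.27 to 0.43), Cry1 by -0.26 (interval -0.46 to -0.05, adjusted p 0.249) and Nr1d1 by -0.14 (interval -0.51 to 0.23). The same test between the GRwt/wt sets of the runs called Tef alone (0.29, SE 0.0725, adjusted p 0.00719), beside 7.09% of all genes, and Per1 differed there by 0.10 (interval -0.17 to 0.37), or by -0.07 (adjusted p 0.848) without vehicle replicate 2 of run 1. Cry1 differed between these sets by 0.32 (adjusted p 0.0898). It was called without vehicle replicate 3 of run 1 (0.42, adjusted p 0.0157) and stood at 0.13 (adjusted p 0.561) without vehicle replicate 2 of run 1. Clock differed by -0.24 (adjusted p 0.129) and was called without Dex replicate 6 of run 2 (-0.32, adjusted p 0.0260).

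**Figure D3:**
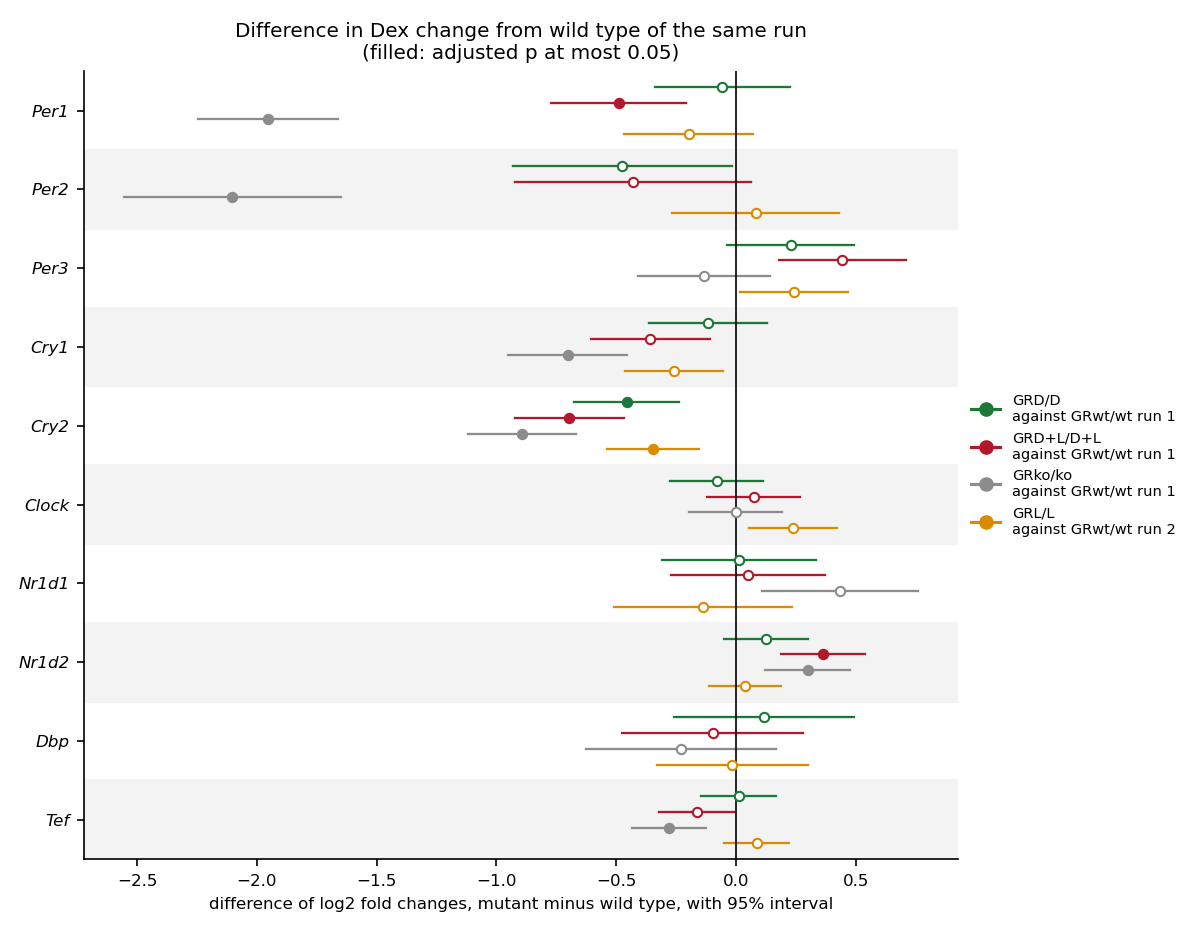
Difference between the log2 Dex change of each mutant and that of GRwt/wt of the same run (horizontal axis), with its 95% interval, for the 10 clock genes. Filled points have an adjusted p of at most 0.05. Cry2 is the gene with a filled point in all 4 mutants, at -0.46 in GRD/D, -0.70 in GRD+L/D+L, -0.89 in GRko/ko and -0.35 in GRL/L.

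To set Per1 and Per2 beside other genes, the share of the GRwt/wt log2 change that a mutant kept was taken over all genes raised in GRwt/wt at the study's limit. Over the 198 such genes of run 1, the median share was 27.5% in GRD/D (quartiles 5.72% and 55.5%), and Per1 and Per2 ranked 16 and 29 from the top. In GRD+L/D+L the median was 21.2% (quartiles 4.54% and 42.1%) and the ranks were 18 and 17, and in GRko/ko the median was -1.29%. Over the 378 genes of run 2, GRL/L had a median of 70.6% (quartiles 53.6% and 84.7%), with Per1 at rank 66 and Per2 at rank 26. Because these genes were selected for a high value in GRwt/wt, such shares are biased downwards, for Per1 and Per2 as for the rest. For comparison, of the GR targets in the study's qPCR panel, Fkbp5 had log2 Dex changes of 2.58 in GRwt/wt of run 1, 1.07 in GRD/D and 0.99 in GRD+L/D+L, and Tsc22d3 had 1.84, 0.52 and 0.47. The third, Dusp1, rose in GRwt/wt (0.34, adjusted p 5.35e-05) and fell in GRD/D (-0.40, adjusted p 9.26e-06) and GRD+L/D+L (-0.31, adjusted p 0.00110).

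Before treatment, 1 or 2 clock genes were called in each point mutant and 7 in GRko/ko. Set beside the shares of all genes given below, the counts in the point mutants lay near or below that background. Their values describe single genes. The count in GRko/ko stood beside 45.7% of all genes, and whether it exceeded that share was not tested. Per kilobase of exon, the vehicle means in GRwt/wt of run 1 were 13.7 CPM for Nr1d1, 6.44 for Per1, 5.58 for Nr1d2, 4.93 for Clock, 4.68 for Tef, 4.42 for Cry1, 2.86 for Cry2, 2.56 for Dbp, 1.27 for Per3 and 0.563 for Per2. In GRD/D 1 member was called against GRwt/wt, beside 9.55% of all genes, with Per1 lower by a log2 difference of -0.50 (SE 0.107, adjusted p 0.00131), although the libraries overlapped. In GRD+L/D+L 2 were called, beside 29.9%, with Per1 at -0.28 (adjusted p 0.0435) and Clock at -0.20 (adjusted p 0.0254). Both Per1 values depend in part on vehicle replicate 2 of GRwt/wt, at 44.8 CPM, and the call in GRD/D held without it. Without it, the difference of Per1 was -0.33 (adjusted p 0.0390) in GRD/D and -0.11 (adjusted p 0.490) in GRD+L/D+L, and that of Clock in GRD+L/D+L had an adjusted p of 0.0514. The Per1 call in GRD+L/D+L was also lost without its vehicle replicate 1 (0.0651), 2 (0.0777) or 3 (0.114), and the Clock call without its vehicle replicate 1 (0.133) or vehicle replicate 3 of GRwt/wt (0.0746). Without vehicle replicate 2 of GRwt/wt, Cry1 was called as higher in GRD/D (0.28, adjusted p 0.0243) and in GRD+L/D+L (0.37, adjusted p 0.000847), where with all libraries it was 0.10 (adjusted p 0.570) and 0.19 (adjusted p 0.114).

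In GRko/ko, 7 of 10 members were called in vehicle, beside 45.7% of all genes, with Per2 higher and the other 6 lower. Per2 stood at 5.06, 5.56 and 5.88 CPM against 2.47, 4.32 and 3.11 CPM in GRwt/wt, without overlap (log2 difference 0.74, SE 0.175, adjusted p 0.000600). Nr1d1 had 28.5, 28.4 and 25.2 CPM against 42.2, 37.8 and 46.1 CPM (-0.62, SE 0.112, adjusted p 1.75e-05). Nr1d2 had 21.6, 23.3 and 21.6 CPM against 31.1, 29.0 and 30.3 CPM (-0.45, SE 0.0616, adjusted p 1.54e-07). Both REV-ERB genes were thus lower without overlap, and the vehicle level of Nr1d1 in GRko/ko overlapped with that of the Dex libraries of GRwt/wt. The others were Per3 at -0.30 (adjusted p 0.00861, and 0.0829 without vehicle replicate 3 of GRwt/wt), Clock at -0.24 (adjusted p 0.00359), Per1 at -0.29 (adjusted p 0.0245) and Dbp at -0.32 (adjusted p 0.0494). The Per1 call was lost without vehicle replicate 2 of GRwt/wt (-0.12, adjusted p 0.400) or vehicle replicate 1 of GRko/ko (adjusted p 0.0702). The Dbp value was -0.20 (adjusted p 0.300) without vehicle replicate 1 of GRwt/wt and -0.50 (adjusted p 0.00591) without vehicle replicate 2 of GRko/ko, and its call was also lost without vehicle replicate 1 (0.199) or 3 (0.168) of GRko/ko. Cry1 was at 0.19 (adjusted p 0.0774), and at 0.37 (adjusted p 0.000316) without vehicle replicate 2 of GRwt/wt. GRko/ko cells also had the high leukocyte and cartilage marker levels, and the part of these in the 7 vehicle differences was not tested. Sex, and strain where the knockout mice are described on another one, cannot be told apart from the knockout in these differences.

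GRL/L differed from GRwt/wt of run 2 in vehicle in 1 member, beside 11.3% of all genes. It was Cry2, which was higher at 22.0, 20.9 and 21.2 CPM against 16.9, 17.1 and 15.6 CPM, a log2 difference of 0.37 (SE 0.0691, adjusted p 0.000201). The vehicle levels of GRwt/wt in the separate runs differed in 4 members, beside 72.4% of all genes, with Per1 (-0.73, adjusted p 1.07e-07) and Nr1d1 (-1.59, adjusted p 8.95e-15) lower and Nr1d2 (0.30) and Tef (0.25) higher in run 2. Nr1d1 thus stood at 14.0 CPM in run 2 and 42.0 CPM in run 1, and Thra, with which it shares exon bases, at 59.6 CPM and 29.6 CPM. Run, cultures and sex pattern cannot be told apart in this comparison. Without vehicle replicate 2 of run 1, Per2 (0.52, adjusted p 0.0174) and Cry1 (0.35, adjusted p 0.000217) were called as higher in run 2 as well.

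**Figure D4:**
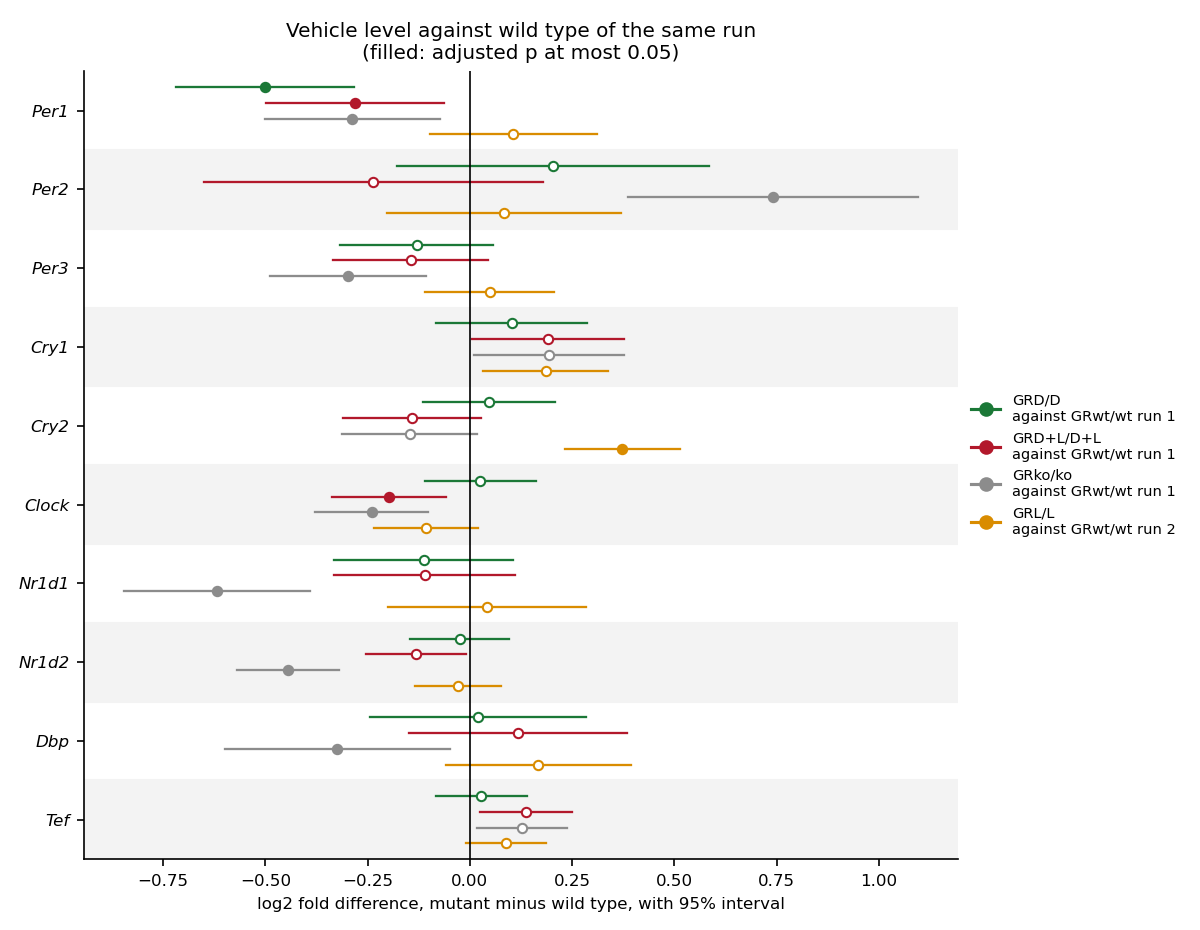
Log2 difference of the vehicle level of each mutant from GRwt/wt of the same run (horizontal axis), with its 95% interval, for the 10 clock genes. Filled points have an adjusted p of at most 0.05. In GRko/ko, Per2 lies at 0.74 and Nr1d1 at -0.62, while Cry2 at 0.37 is the filled point of GRL/L.

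A further 21 genes of the clock were listed as accessory loop components, kinases and output genes, of which 20 passed the filter on low counts and were tested. Nfil3, the repressor at D-boxes, and Ciart, which encodes a repressor of CLOCK and BMAL1, rose with Dex in GRwt/wt of either run. Nfil3 went from 27.7, 28.7 and 26.4 CPM to 43.9, 46.5 and 43.7 CPM in run 1 (log2 fold change 0.70, adjusted p 4.30e-10) and from 30.6, 31.3 and 34.5 CPM to 79.5, 70.4 and 75.8 CPM in run 2 (1.23, adjusted p 7.10e-19). Its Dex change was 0.26 in GRD/D (adjusted p 0.00788), 0.18 in GRD+L/D+L (adjusted p 0.225), 0.05 in GRko/ko (adjusted p 0.978) and 0.76 in GRL/L (adjusted p 9.94e-13). The change differed from that in GRwt/wt of the same run in GRD/D (difference -0.43, adjusted p 0.00497), GRD+L/D+L (-0.52, 0.000984), GRko/ko (-0.65, 6.24e-06) and GRL/L (-0.47, 0.000646). Ciart was low, at 1.23, 0.959 and 1.49 CPM in vehicle and 4.14, 2.98 and 4.05 CPM after Dex in GRwt/wt of run 1 (1.60, adjusted p 5.49e-06), and this change differed from those in GRD+L/D+L (0.24, difference -1.36, adjusted p 0.0218) and GRko/ko (0.10, difference -1.49, adjusted p 0.00487), where Ciart was not called.

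In all, Dex raised 4 and lowered 1 of these 20 genes in GRwt/wt of run 1, and raised 4 and lowered 1 in GRD/D. It raised 1 in GRD+L/D+L and changed 0 in GRko/ko (edgeR, with 0 at an unadjusted p under 0.05, beside 859 of all genes tested). In run 2 it raised 7 and lowered 5 in GRwt/wt and raised 5 and lowered 6 in GRL/L. Beside them, the shares of all genes raised and lowered were 7.74% and 6.2% in GRwt/wt of run 1, 5.63% and 6.24% in GRD/D, 3.08% and 1.92% in GRD+L/D+L, 14.9% and 16.7% in GRwt/wt of run 2 and 8.79% and 10.4% in GRL/L, so that the single genes lowered in GRwt/wt of run 1 and in GRD/D, and the single gene raised in GRD+L/D+L, lay near the background. In GRwt/wt of run 1 the others were Usp2 (0.45, adjusted p 0.0497), Cipc (0.21, adjusted p 0.00911) and Rora (-0.28, adjusted p 0.0192). Arntl, the partner of Clock, fell in GRwt/wt of run 2 (-0.39, adjusted p 2.48e-07) and in GRL/L (-0.52, adjusted p 7.24e-10), whereas in GRwt/wt of run 1 it had a log2 change of -0.03 (interval -0.15 to 0.08). That difference between the GRwt/wt sets was called (-0.36, adjusted p 0.00170), as were those of Bhlhe41 (-0.86), Nampt (0.54) and Nfil3 (0.53). Bhlhe41 (DEC2), an E-box repressor, fell in run 2 in GRwt/wt (-0.73) and GRL/L (-0.51), as did its paralogue Bhlhe40 (DEC1), with log2 changes of -0.24 and -0.28. Further calls in GRwt/wt of run 2 included Hlf (1.15), Nampt (0.66), Usp2 (0.52), Cipc (0.35), Rora (-0.35) and Fbxl21 (-0.82). In vehicle, 1 of the 20 was called in GRD/D (Bhlhe41, 0.61), 8 in GRD+L/D+L, 10 in GRko/ko and 0 in GRL/L (edgeR, with 1 at an unadjusted p under 0.05, beside 3571 of all genes tested). The shares of all genes called were 9.55%, 29.9%, 45.7% and 11.3% in this order, so that the counts in GRD+L/D+L and GRko/ko lay near that background. In GRko/ko the differences over a log2 value of 1 were Arntl2 (2.02, adjusted p 1.19e-08), Bhlhe41 (1.68, adjusted p 8.93e-17) and Usp2 (1.09, adjusted p 6.08e-08).

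**Figure D5:**
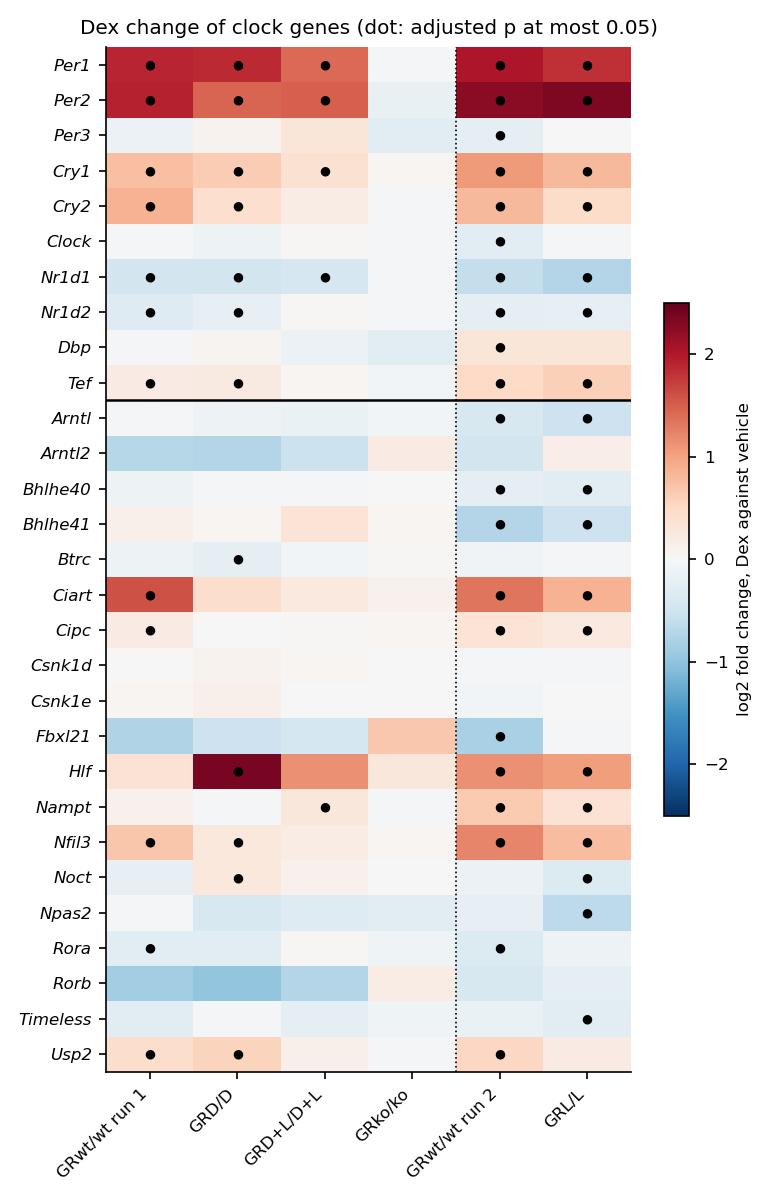
Log2 fold change of Dex against vehicle (colour) for the 10 clock genes above the line and further clock genes below it, in 6 columns for the genotype sets, with run 2 right of the dotted line. Black dots mark an adjusted p of at most 0.05. The column of GRko/ko holds no dot, and Nfil3 and Ciart are marked in GRwt/wt of either run.

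The spread within groups differed between the members. The SD of log2 CPM around the group means was 0.06 for Tef, 0.06 for Nr1d2, 0.09 for Clock, 0.09 for Cry2, 0.10 for Per3, 0.11 for Cry1, 0.14 for Per1, 0.16 for Dbp, 0.16 for Nr1d1 and 0.20 for Per2, with a median of 0.12 over all genes tested. A log2 change of 0.21 was called for Tef in GRwt/wt of run 1, while one of 0.29 for Dbp in GRL/L was not. In GRwt/wt of run 2, Dbp was called at 0.31. The part of spread, level and depth in these calls was not tested. Over the 36 libraries, with the mean of each run subtracted, log2 CPM of Per1 followed that of Per2 (Pearson r = 0.92) and Cry1 (0.91), Per2 followed Cry1 (0.94), and Nr1d1 ran against Per2 (-0.72) and Cry1 (-0.71). These are descriptions over libraries that share genotype, treatment and run. The genes other than the 10 members with the most similar profile were Trim24 (0.97) and Sphk1 (0.96) for Per1, Fkbp5 (0.93) and Ptchd4 (0.92) for Per2, Wee1 (0.92) and Ablim1 (0.91) for Cry1, Rtl3 (0.93) and Sik1 (0.92) for Cry2, Fam84b (0.87) for Nr1d1, Baalc (0.90) for Nr1d2, Ttc3 (0.87) for Clock, Mettl7a1 (0.82) for Dbp and Snx30 (0.80) for Per3.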

How the data were processed

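RNA from 36 libraries was sequenced by the authors on a NextSeq 550 after TruSeq library preparation, and the submitters' processing notes name HISAT2 2.1.0, the genome build mm10, featureCounts 2.0.0, FastQC and DESeq2. The values the authors deposited are raw counts of uniquely mapped reads per Ensembl gene, so a gene with near-identical copies can be undercounted. The annotation release and the strand setting were not given in the sources used here, and overlapping genes on opposite strands may therefore share counts. Genes were named by matching IDs (55141 of 55487).

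Genes with enough counts by filterByExpr over the 12 groups (15489, holding 99.9% of counts) were scaled by TMM and fitted with edgeR 4.0.16 (R 4.3.3, limma 3.58.1) in 1 quasi-likelihood model with a mean for each genotype, treatment and run. The biological coefficient of variation was 0.0513. Dex changes, their differences between genotypes and vehicle levels were contrasts of these means, with two-sided quasi-likelihood F tests and Benjamini-Hochberg adjustment over all genes tested. SEs and 95% intervals were derived from the F statistic and are approximate. CPM values are counts divided by the TMM-scaled library size and multiplied by 1e6, and fold changes are given on the log2 scale. Log2 CPM used a prior count of 2. The p-values measure the spread between libraries within groups, estimated for each gene over all 12 groups and 36 libraries together. A noisy library therefore enters the tests of other groups as well. The depth of the libraries is given in the results. The study describes the 3 libraries of a group as cultures from different mice. All 6 libraries of every genotype set had the same sex pattern, and whether each replicate came from a separate embryo was not tested. If they did not, the p-values leave out the spread between embryos. The alternatives were DESeq2 1.42.0, its size factors, no filter, at least 10 counts in every library, the study's formula with the GRwt/wt sets pooled, each run alone, a replicate block, a prior count of 0.5 for the spread, and leaving out each library. The scripts were tested on simulated counts. Coordinates, exon lengths and overlaps are from GENCODE vM21 on GRCm38, the assembly of mm10. Tables and figures were made with Python 3.11.15, pandas 2.3.3 and matplotlib 3.10.9.

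The 10 members, the other clock genes and the marker lists were chosen with earlier results of these data known. The genes named are all members, further clock genes by their calls, genes used as checks and those with the most similar profiles. A few genes outside the 10 members are not reported here, although the counts over the lists include them. The separate experiment at a lower Dex dose was not analysed here.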

Additional observations from a re-analysis of the deposited data

Results flagged for a closer look

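The clock genes below are listed because the test of the difference itself, between the Dex change of a genotype and that of the GRwt/wt set it was compared with, had an adjusted p of at most 0.05 in edgeR. In GRD/D this held for Cry2, with a difference of -0.46 on the log2 scale. In GRD+L/D+L it held for Per1 at -0.49, Cry2 at -0.70 and Nr1d2 at 0.36. In GRko/ko it held for Per1 at -1.95, Per2 at -2.10, Cry1 at -0.70, Cry2 at -0.89, Nr1d2 at 0.30 and Tef at -0.28. GRL/L differed in Cry2, at -0.35, and GRwt/wt of run 2 differed from that of run 1 in Tef, at 0.29. The comparisons within run 1 share the same 6 GRwt/wt libraries, so the repeated appearance of Cry2, Per1 and Nr1d2 there is not independent. Whether the difference in GRD+L/D+L exceeded that in GRD/D was tested directly, and Cry2 had -0.24 with an adjusted p of 0.457.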

How the results depend on the processing

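Over all alternative settings, 17 of 419 refits of values that had been called for single clock genes lost the call and 0 reversed, and 31 of 711 refits of values not called gained one. With single libraries left out, 59 of 444 refits of called values lost the call and 0 reversed. Without the filter on low counts, the number of clock genes with a different Dex change was 0 for GRL/L, 0 between the GRwt/wt sets and 1 for GRD+L/D+L against GRD/D (Per1, -0.43, adjusted p 0.0110), where 32584 genes were adjusted for in place of 15489. In this setting Nr1d2 was lost in GRD+L/D+L (adjusted p 0.0846), Nr1d2 (0.169) and Tef (0.106) were lost in GRko/ko, and Nr1d1 was gained there (0.00368). With the GRwt/wt sets pooled and a term for the run, it was 2 for GRD/D (Per2 at -0.68, adjusted p 0.0197, in addition to Cry2) and 6 for GRD+L/D+L, and 4 clock genes had a different vehicle level in GRD+L/D+L. With each run alone it was 0 for GRL/L. The cause was not tested. The shares of all genes called are not given here for these settings, for the fits without single libraries or for the replicate block. Such counts therefore cannot show a change particular to the clock genes.

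Leaving out single libraries gave counts of 6 to 7 for the Dex change in GRD/D, 3 to 5 in GRD+L/D+L, 8 to 10 in GRwt/wt of run 2 and 7 to 8 in GRL/L. For the difference in Dex change they were 1 to 5 in GRD+L/D+L, 4 to 6 in GRko/ko, 0 to 1 in GRL/L and 1 to 2 between the GRwt/wt sets. For the vehicle level they were 1 to 2 in GRD/D, 0 to 2 in GRD+L/D+L, 5 to 7 in GRko/ko, 1 to 2 in GRL/L and 4 to 6 between the GRwt/wt sets. The highest count in GRD+L/D+L for the difference, and the higher vehicle counts in GRD/D and GRL/L came without vehicle replicate 2 of GRwt/wt in run 1. That library is not part of the GRL/L comparison, which shares with it the filter, the scaling and the estimate of spread. The cause of the higher count in GRL/L was not tested.

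Vehicle and Dex libraries with the same replicate number did not deviate together (correlations of -0.0787 to 0.116 over 18 pairs, 1 of them above 0.1), so the numbers were not taken to pair the cultures. With a replicate block, the number of clock genes with a different Dex change was 0 in GRL/L (the call for Cry2 was lost), 4 in GRD+L/D+L and 6 in GRko/ko, where Nr1d2 was lost (adjusted p 0.0504) and Nr1d1 gained (0.0335), and the Dex change was called for 5 genes in GRD+L/D+L and 8 in GRL/L. By Spearman's correlation, another gene had the most similar profile for 7 of the 10 members, that is for all except Per2, Nr1d2 and Tef. The spread within groups changed by less than 0.01 with the smaller prior count. Per2 had the lowest counts per length of the members, and how far depth limits each member was not tested.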

Other observations

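Among the 20 further clock genes, 8 were called in GRD+L/D+L and 10 in GRko/ko before treatment, beside 29.9% and 45.7% of all genes, so that these counts lie near the background and the values below describe single genes. In GRD+L/D+L, the higher ones were Noct (0.56, adjusted p 2.33e-06), Btrc (0.31) and Csnk1e (0.16), the last of which encodes a kinase of the period proteins. The lower ones were Rorb (0.501 times the GRwt/wt level, adjusted p 0.0287), Npas2 (-0.74, adjusted p 0.00460), Timeless (-0.63), Rora (-0.30) and Nfil3 (-0.29). Npas2, a paralogue of Clock, was lower in GRko/ko as well (-0.96, adjusted p 0.000152), as were Rorb (-0.97) and Rora (-0.51), the genes of nuclear receptors that compete with REV-ERB at the ROR element. These comparisons share the GRwt/wt libraries of run 1, and the knockout and double mutant libraries had the male expression pattern.

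In GRL/L, Dex also lowered Npas2 (-0.66, adjusted p 0.00204), Noct (-0.34, adjusted p 0.0254) and Timeless (-0.29, adjusted p 0.00903). In GRwt/wt of run 2 the log2 changes were -0.21 for Npas2, -0.14 for Noct and -0.17 for Timeless, and none of these differences between the genotypes was called (adjusted p 0.421, 0.650 and 0.734).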
